A study of Mus musculus with 24 samples.

Results

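The 50 genes described here encode synaptic vesicle proteins and the machinery that releases transmitter, in the nucleus accumbens (NAc) of mice after early-life stress. They were taken as a list of gene symbols by function, drawn up with earlier results of these data known, and are 50 of the 52636 genes counted. RNA-seq libraries were made from 24 C57BL/6 mice (C57BL/6J in the methods) at 50 days of age, 1 per mouse, from punches of the NAc of both sides. There were 4 groups of 6, which were control females (Con females), females of the maternal separation and unpredictable maternal stress protocol (MSUS females), Con males and MSUS males. MSUS litters were separated from the dam each day in the first weeks of life while the dam was stressed at unpredictable times, and Con litters were left undisturbed. The tissue was cut with a punch from frozen brain, and RNA was depleted of rRNA before library preparation. The labels do not say which mice came from the same litter, so that p values measure the spread between mice whatever their litter.

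At a synapse, vesicles are filled with transmitter by transporters in their membrane, tethered and primed at the active zone, and fused with the plasma membrane when calcium enters. Fusion is driven by the SNARE proteins, which zip together between the vesicle and the plasma membrane. Synaptotagmins sense the calcium and complexins hold and then promote the fusion step. After fusion the SNARE complexes are taken apart by NSF and its adaptors, and the vesicle membrane is retrieved with the help of clathrin adaptors and dynamin. Most neurons of the NAc are GABAergic projection neurons, and its glutamatergic inputs come from cell bodies in cortex, thalamus, amygdala and hippocampus, whose mRNA lies largely outside the NAc.

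Values per gene are normalized counts, which are the counts of read pairs on the gene's own strand divided by a size factor per library. Between 39923666 and 70575745 such pairs were counted per library. Every member was detected in every library, the lowest count being 29, and 50 of 50 passed the filter on low counts in each comparison. The labelled tissue was checked by its defining markers. All 10 listed genes of striatal projection neurons were detected in every library, with a summed level of 2326 to 6417 CPM (counts scaled to a common library total) in Con females and 4303 to 5631 in MSUS females. The 12 listed genes of cortical excitatory neurons were also detected in every library, with a summed level that ran from 276 to 1732 CPM among Con females and 133 to 785 among MSUS females, and for males 172 to 1209 (Con) and 184 to 1738 (MSUS). In bulk tissue, fewer cells of a type and less RNA per cell cannot be told apart.

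Compared per length of exon, the members spanned levels from 2.03 to 293 CPM per kb, as means over the 24 libraries. Cplx2, a complexin, had the highest level and Vamp2, the vesicle SNARE protein synaptobrevin 2, was next with 172 CPM per kb. Snap25 (159.9 CPM per kb), Cplx1 (156), Rab3a (141), Syt1 (134), Dnm1 (132) and Syt11 (129) followed. The level of the vesicular GABA transporter gene Slc32a1 was 74.6 CPM per kb, the highest among the 3 transmitter transporters. Slc17a6, which encodes the vesicular glutamate transporter VGLUT2, had the lowest level, and the priming factor gene Unc13b was next above it with 2.32. Together the 50 genes summed to a median of 15691 CPM in Con females (range 14460.1 to 19015), 13372 among MSUS females (13056 to 15286), 14307 among Con males (12710.1 to 16811) and 14574 among MSUS males (12499 to 19298). The summed levels of Con and MSUS females overlapped, and so did those of the males.

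**Figure D1:**
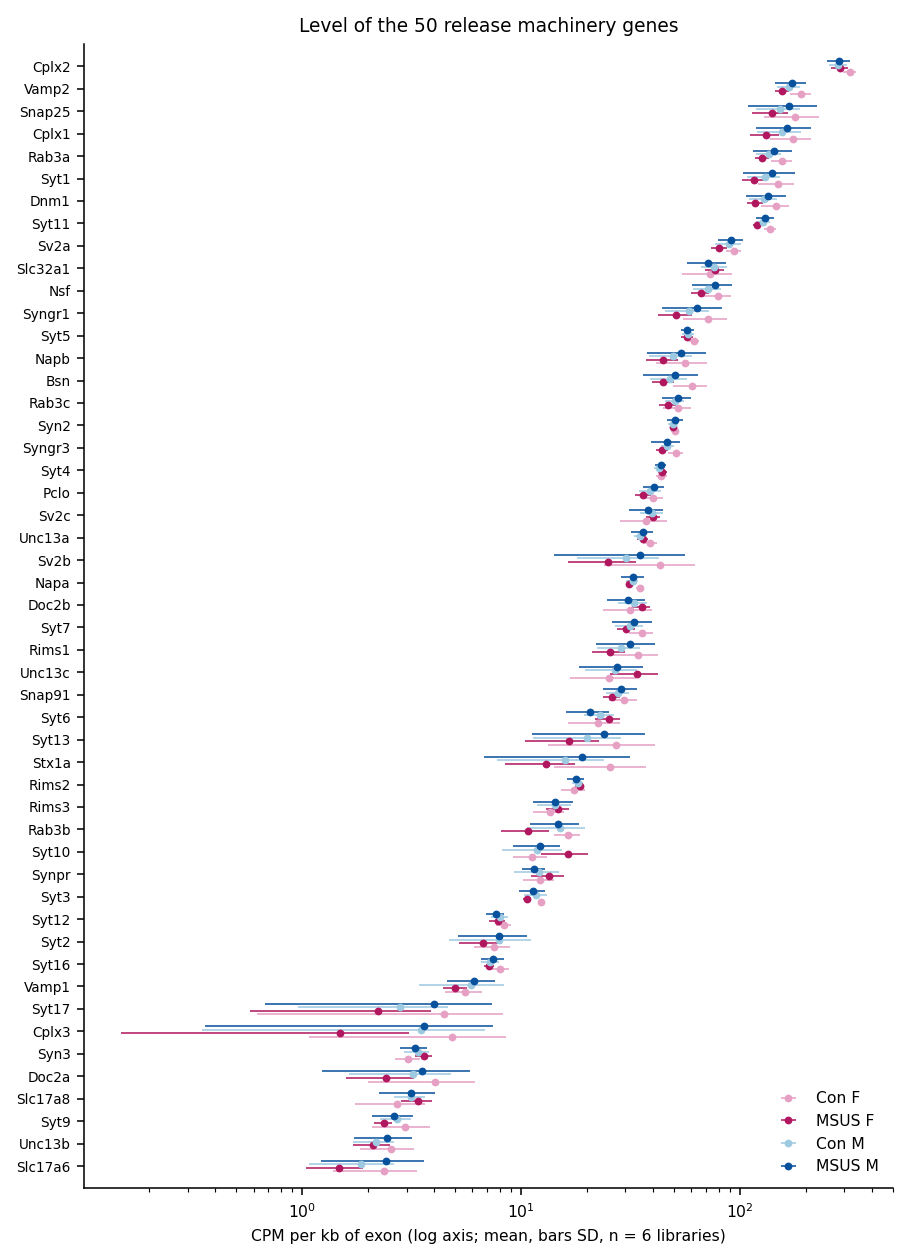
Level of each of the 50 members on a log axis, as CPM per kb of exon, with the mean of 6 libraries per group as points and the SD as bars. The bars of Cplx3 in MSUS females, Con males and MSUS males were shortened on their left side to stay on the log axis. In MSUS females and MSUS males its SD exceeded the mean. Members run from Slc17a6 at 2.03 CPM per kb to Cplx2 at 293, and the widest bars are those of Cplx3, Syt17, Stx1a, Syt13, Doc2a and Sv2b.

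The members differed in how far they varied from mouse to mouse. For 12 of the 50 the highest library was less than 1.5 times the lowest, among them Syt4 (1.23-fold), Syt5 (1.25-fold) and Syn2 (1.28-fold). For 26 it was more than 2 times the lowest. The largest spans were those of Cplx3 (55.0-fold), Syt17 (10.3-fold), Syt13 (5.12-fold), Slc17a6 (4.99-fold), Doc2a (4.64-fold), Sv2b (4.63-fold) and Stx1a (4.50-fold). In Con females alone the coefficient of variation was 3.15% for Syt3 and 78.0% for Cplx3, so that the same fold difference between groups is measured with very different precision for different members.

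The first comparison was of MSUS with Con in females, 6 mice against 6. In this comparison 19 of the 50 members fell and 2 rose in edgeR's quasi-likelihood test, where the Benjamini-Hochberg adjusted p had to be under 0.10, and 29 did not pass. Over all 20571 genes tested in females, 25.1% passed, 13.1% being higher in MSUS and 11.9% lower. Of the members, 42.0% passed, with 38.0% lower. The median log2 fold change, MSUS over Con, was −0.20 over the members and −0.0027 over all genes tested. The members that fell had log2 fold changes of −0.97 to −0.17, and those that did not pass ran from −1.69 to 0.44, with 19 below 0 and 10 above. The genes that fell were Syt1, Syt3, Syt7, Syt11, Stx1a, Vamp2, Nsf, Napa, Cplx1, Sv2a, Sv2b, Rab3a, Rab3b, Syngr1, Syngr3, Rims1, Bsn, Slc17a6 and Dnm1, and those that rose were Syt10 and Syn3.

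The female count was sensitive to single mice. It was 10 without MSUS female 5, 11 without MSUS female 2, 11 without MSUS female 3 and 12 without MSUS female 4, and reached 29 without MSUS female 1. The call was kept in all 12 fits that left out 1 mouse for 10 of the 21 members, which were Syt3, Syt11, Vamp2, Napa, Sv2a, Rab3a, Rab3b, Syngr3, Bsn and Dnm1. Over all genes tested, the share that passed was 18.1%, 16.2%, 15%, 21.3% and 27.7% without MSUS female 5, 2, 3, 4 and 1. By DESeq2 23 members passed (28.1% of all genes), in edgeR without the filter on low counts 10 (10.1%), in one fit of all 24 mice 13 (19%), and at an adjusted p under 0.05 there were 10 (15.2%). With the score of cortical markers as a covariate 3 members passed (6% of them, against 8.91% of all genes tested), so that the members were not called more often than other genes in that fit. With the share of read pairs assigned to no gene as a covariate 0 members and 0% of all genes did. Every MSUS female lay below every Con female for 2 members, Syt3 and Syt11 (against 3.41% of all genes tested), and above for 0 members (against 3.81%).

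**Figure D2:**
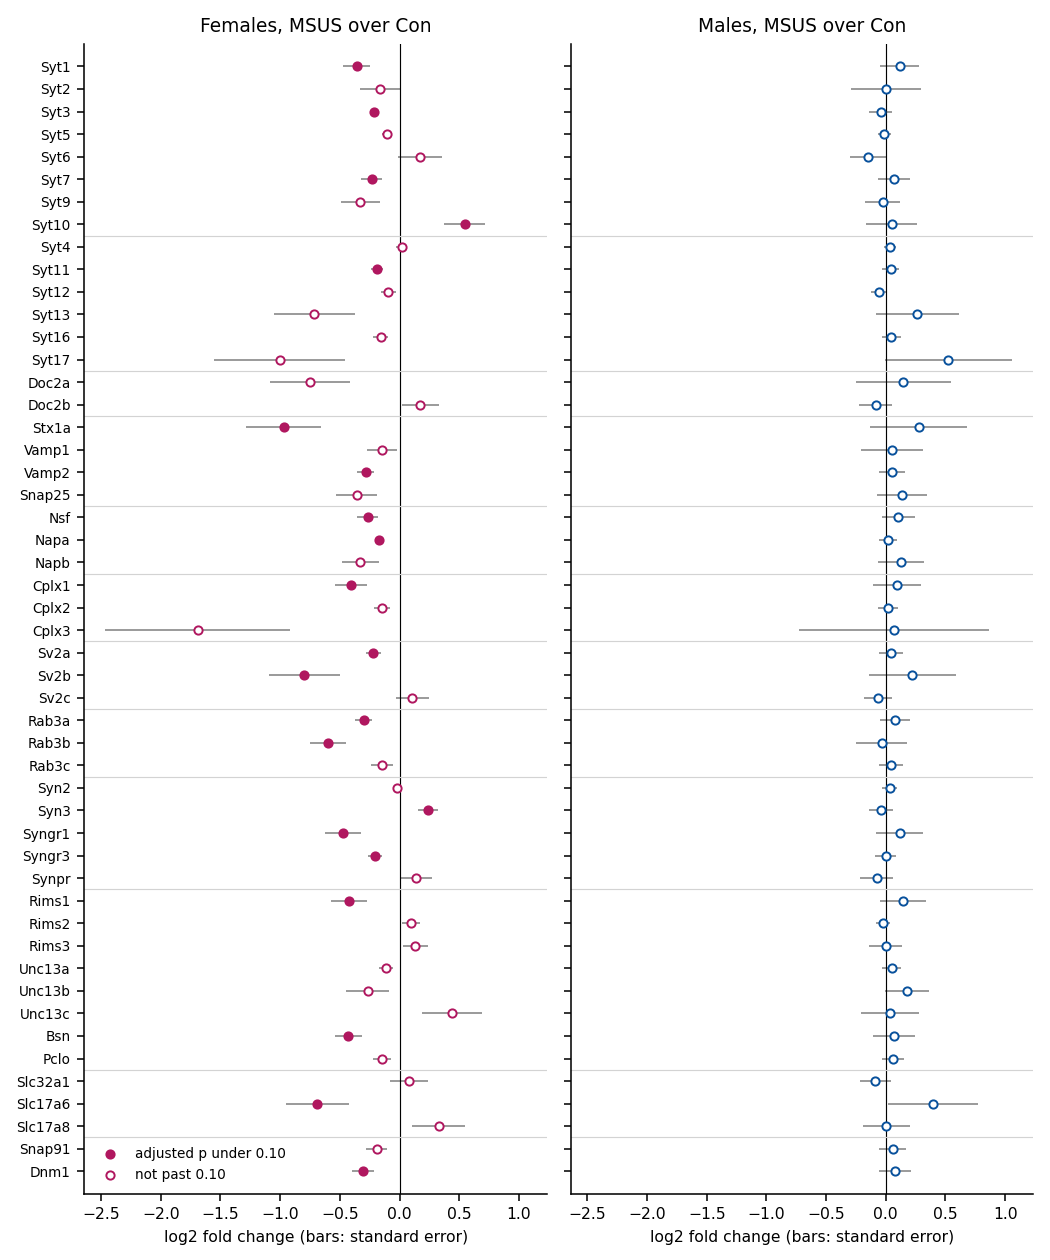
Log2 fold change of MSUS over Con for the 50 members in females (left) and males (right), with bars of 1 standard error and lines between the groups of like function. Filled points passed edgeR's quasi-likelihood test at an adjusted p under 0.10 (19 below 0 and 2 above in females, 0 in males).

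Of the 8 synaptotagmins counted as calcium sensors, 3 fell in MSUS females, 1 rose and 4 did not pass. Syt3 encodes a synaptotagmin of the plasma membrane with high calcium affinity and lies on chromosome 7, 44384102 to 44400187 in GENCODE M21 (GRCm38). It had 1918 to 2100.5 (median 2054) normalized counts among Con females and 1696 to 1850.2 (median 1740.2) among MSUS females. Its groups did not overlap, with every MSUS female below the lowest Con female, and it had the smallest p of the 50 members (log2 fold change −0.21, standard error 0.032, edgeR adjusted p = 0.00309). The mean was 2036 ± 64.2 (SD, n = 6) among Con females and 1755 ± 61.9 among MSUS females, a difference of −13.8%. In males the same gene ran over 1596 to 2161 (median 1956) in Con males and 1553 to 2152 (median 1957) in MSUS males, with wide overlap.

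Syt10 moved the other way. It encodes a calcium sensor known from the secretion of growth factor in the olfactory bulb and lies on chromosome 15, 89782393 to 89841860. Its values were 771 to 1321 (median 1124) normalized counts among Con females and 982 to 2041 (median 1659) among MSUS females. Of the 6 MSUS females 5 were above the median of Con and the lowest was within the Con range (log2 fold change 0.55, standard error 0.17, edgeR adjusted p = 0.0527). The call was lost without MSUS female 5. Male values of Syt10 were 719 to 1528 (median 1179.9) in Con males and 887 to 1526 (median 1169) in MSUS males.

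Syt1, the main sensor for fast synchronous release, had 53738 to 89825 (median 63372) normalized counts among Con females and 46666 to 63453 (median 49378) among MSUS females. Of the MSUS females 5 were under the median of Con, and the ranges overlapped (log2 fold change −0.36, standard error 0.12, edgeR adjusted p = 0.0527). The call was lost without MSUS female 2, 3, 4 or 5. Syt7, a sensor of asynchronous release and facilitation, had 11905 to 17418 (median 13582) normalized counts among Con females and 10580.2 to 14092 (median 11824) among MSUS females (log2 fold change −0.23, standard error 0.086, edgeR adjusted p = 0.0816), and its call held in 4 of the 12 fits that left out 1 mouse. The 4 members that did not pass were Syt2 (log2 fold change −0.16), Syt5 (−0.10), Syt6 (0.17) and Syt9 (−0.33), which also act as calcium sensors, and Syt9 had a standard error of 0.16.

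Among the 6 other synaptotagmins, most of which do not bind calcium through the usual sites, 1 fell and 5 did not pass. Syt11 (chromosome 3, 88744700 to 88775164), a brake on vesicle and membrane retrieval, had 35088 to 42159.6 (median 37767) normalized counts among Con females and 31163 to 34956 (median 33192) among MSUS females. Here too every MSUS female lay below every Con female (log2 fold change −0.19, standard error 0.047, edgeR adjusted p = 0.0192), and the call held in each fit that left out 1 mouse, at −0.21 to −0.16. Syt17 had the largest log2 fold change of this group, −1.0, and did not pass (standard error 0.55, edgeR adjusted p = 0.225). Its values were 487 to 3314 (median 801) normalized counts among Con females and 329 to 1518 (median 432) among MSUS females. Con female 3 had 3314 and MSUS female 1 1518 normalized counts of Syt17, each far above the rest of its group. Without Con female 3 the log2 fold change of Syt17 was −0.41. Syt13 was also wide, with 3188 to 10307 (median 4349) normalized counts among Con females and 2012 to 5585 (median 2923) among MSUS females (log2 fold change −0.71, edgeR adjusted p = 0.165), while Syt4, Syt12 and Syt16 had log2 fold changes of 0.019, −0.093 and −0.16.

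The Doc2 proteins are high-affinity calcium sensors of spontaneous and asynchronous release, and neither of the 2 members passed. Doc2a had 320.2 to 1028 (median 510.3) normalized counts among Con females and 258 to 594 (median 313) among MSUS females (log2 fold change −0.75, standard error 0.34, edgeR adjusted p = 0.144). Its partner Doc2b had 4291 to 8954 (median 7796) normalized counts among Con females and 7009.8 to 9325 (median 8222) among MSUS females (log2 fold change 0.17). Doc2a overlaps the gene Ino80e on the other strand, and counts on the other strand came to 103% of its own, so that its values rest on the separation of strands. The same holds for Syn3, which spans Timp3 on the other strand and where that share was 104%. For the other 48 members it was at most 2.67%.

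Of the 4 SNARE genes, 2 fell and the others did not pass, with all 4 log2 fold changes below 0. Vamp2 (chromosome 11, 69088490 to 69092384), the vesicle SNARE of most central synapses, had 34411 to 46148 (median 37609) normalized counts among Con females and 29692 to 35905 (median 30852) among MSUS females. All 6 MSUS females were under the median of Con, and MSUS female 1, the highest of its group with 35905, reached into the Con range (log2 fold change −0.28, standard error 0.072, edgeR adjusted p = 0.0218). The call held in each fit that left out 1 mouse, at −0.32 to −0.22. The mean difference was −18%.

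Stx1a (chromosome 5, 135023482 to 135051100), which encodes the plasma membrane SNARE syntaxin 1A, had the largest fall among the members that passed. Its values were 1937 to 6058 (median 3057) normalized counts among Con females and 1355 to 3073 (median 1679) among MSUS females. Of the MSUS females 5 were under the median of Con, and MSUS female 1 with 3073 lay just above it (log2 fold change −0.97, standard error 0.31, edgeR adjusted p = 0.0564). It did not pass in 6 of the 12 fits that left out 1 mouse, namely those without Con female 2 or 3 and without MSUS female 2, 3, 4 or 5, at log2 fold changes of −1.18 to −0.76 over the 12 fits. Male values of Stx1a spread as widely, over 1367 to 4399.7 (median 1899.9) in Con males and 1511 to 6093 (median 1949) in MSUS males. Snap25, the other plasma membrane SNARE, had 46922 to 100027 (median 59224) normalized counts among Con females and 42487 to 68050.1 (median 46844) among MSUS females and did not pass (log2 fold change −0.36, standard error 0.17, edgeR adjusted p = 0.168). Vamp1, the vesicle SNARE of spinal and fast-spiking neurons, had a log2 fold change of −0.15.

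The genes that take SNARE complexes apart were all lower on average in MSUS females, and 2 of the 3 passed. Napa (chromosome 7, 16098458 to 16117975), which encodes the adaptor α-SNAP, had 6559.6 to 7530.4 (median 7092) normalized counts among Con females and 6042 to 6588 (median 6189) among MSUS females. All 6 MSUS females were under the median of Con and the ranges overlapped narrowly, the highest MSUS female being above the lowest Con female (log2 fold change −0.17, standard error 0.038, edgeR adjusted p = 0.0122). Nsf, the ATPase itself, had 30567 to 45670.5 (median 33649.6) normalized counts among Con females and 26887 to 34256 (median 28389) among MSUS females (log2 fold change −0.27, standard error 0.090, edgeR adjusted p = 0.0604), and its call was lost without MSUS female 2, 3, 4 or 5. Napb, the β-SNAP of brain, had 16429 to 32059 (median 19256) normalized counts among Con females and 14878 to 22118 (median 15679) among MSUS females and did not pass (log2 fold change −0.33, standard error 0.16, edgeR adjusted p = 0.163). In Con female 3 and MSUS female 1 Napb stood apart from its group, at 32059 and 22118 normalized counts.

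Among the complexins 1 of 3 fell. Cplx1 (chromosome 5, 108518554 to 108550024) had 16832 to 28244 (median 18436) normalized counts among Con females and 12859 to 19193 (median 14470.2) among MSUS females (log2 fold change −0.41, standard error 0.13, edgeR adjusted p = 0.057). Of the MSUS females 5 were under the median of Con, and the call was lost without MSUS female 2, 3, 4 or 5. Cplx2 had 75845 to 90668 (median 83610.4) normalized counts among Con females and 64424 to 80952 (median 77312) among MSUS females, with all 6 MSUS females below the Con median, and did not pass (log2 fold change −0.15, standard error 0.066, edgeR adjusted p = 0.136). Cplx3, a complexin best known from ribbon synapses of the retina, varied most of all members. It had 209 to 1596 (median 694) normalized counts among Con females and 32.0 to 659 (median 123) among MSUS females, with all 6 MSUS females under the median of Con and overlap below it (log2 fold change −1.69, standard error 0.77, edgeR adjusted p = 0.154). DESeq2 called Cplx3 and edgeR without MSUS female 1 did as well.

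The SV2 glycoproteins sit in the vesicle membrane, and SV2A is the target of the antiepileptic drug levetiracetam. Sv2a (chromosome 3, 96181151 to 96195521) had 21379.7 to 26812 (median 22578) normalized counts among Con females and 18210.3 to 22544 (median 19403) among MSUS females (log2 fold change −0.22, standard error 0.063, edgeR adjusted p = 0.0341), and its call held in each fit that left out 1 mouse. All 6 MSUS females were under the median of Con for Sv2a. Sv2b had 11086 to 34483 (median 16666) normalized counts among Con females and 7990.5 to 18127 (median 9901) among MSUS females (log2 fold change −0.80, standard error 0.30, edgeR adjusted p = 0.0888). With a log2 fold change of −1.0 to −0.55 over the fits that left out 1 mouse, it kept its call in 4 of 12. Sv2c, the paralog with high expression in the basal ganglia, had 12823 to 24421 (median 20574) normalized counts among Con females and 18149.6 to 22129 (median 20929) among MSUS females and did not pass (log2 fold change 0.11, standard error 0.14). Of the MSUS females 3 lay above the Con median of Sv2c and 3 below.

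Rab3 proteins are GTPases that carry vesicles to the active zone, and 2 of the 3 genes fell. Rab3a (chromosome 8, 70754679 to 70758677) had 16678 to 22661 (median 17599) normalized counts among Con females and 13941 to 16682 (median 14862) among MSUS females. The highest MSUS female lay just above the lowest Con female, and all 6 MSUS females were under the median of Con (log2 fold change −0.30, standard error 0.071, edgeR adjusted p = 0.0165). Rab3b (chromosome 4, 108879063 to 108943324) had 2336 to 3436 (median 3132) normalized counts among Con females and 1392 to 2776 (median 1945) among MSUS females. Again all 6 MSUS females were under the median of Con, with a mean difference of −34.1% (log2 fold change −0.60, standard error 0.15, edgeR adjusted p = 0.0245). Both calls held in each fit that left out 1 mouse. Rab3c had 27226 to 42090.0 (median 32258) normalized counts among Con females and 27322 to 34347 (median 29565) among MSUS females and did not pass (log2 fold change −0.15).

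Among 5 genes of synapsins, which tether vesicles to the cytoskeleton, and of synaptogyrins and synaptoporin, which span the vesicle membrane, 2 fell and 1 rose. Syngr1 (chromosome 15, 80091334 to 80119501) had 14584 to 24985 (median 16571) normalized counts among Con females and 11387 to 17472 (median 12440.5) among MSUS females (log2 fold change −0.47, standard error 0.15, edgeR adjusted p = 0.0528). Syngr3 (chromosome 17, 24685092 to 24689955) had 5231 to 6474 (median 5411) normalized counts among Con females and 4484 to 5285 (median 4817) among MSUS females (log2 fold change −0.20, standard error 0.056, edgeR adjusted p = 0.0286). The call of Syngr3 held in each fit that left out 1 mouse, and that of Syngr1 was lost without Con female 2 and without MSUS female 2, 3 or 5. Syn3 (chromosome 10, 86055125 to 86498896) had 1561 to 2206 (median 2067) normalized counts among Con females and 1968 to 2594 (median 2369) among MSUS females and was higher (log2 fold change 0.24, standard error 0.084, edgeR adjusted p = 0.0697). Of the 6 MSUS females 5 lay above the Con median of Syn3, and the call was kept in 5 of the 12 fits. Syn2 was the steadiest member of this group, with 17596 to 20054 (median 18689) normalized counts among Con females and 17959 to 18837 (median 18415) among MSUS females (log2 fold change −0.023). Synpr had 4491 to 7060.3 (median 6426) normalized counts among Con females and 5107 to 8319 (median 7034) among MSUS females (log2 fold change 0.14, standard error 0.13).

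The active zone is built on large scaffolds and on RIM and Munc13 proteins that dock and prime vesicles, and here 2 of 8 genes fell. Bsn (chromosome 9, 108096022 to 108190384), which encodes the scaffold Bassoon, had 39213 to 63881 (median 47829) normalized counts among Con females and 33959.9 to 45539.5 (median 36282) among MSUS females. All 6 MSUS females were under the median of Con (log2 fold change −0.43, standard error 0.11, edgeR adjusted p = 0.0262), and the call held in each fit that left out 1 mouse. Rims1, the main RIM of central synapses, had 10200.0 to 19242 (median 12108) normalized counts among Con females and 8675 to 13245 (median 9376) among MSUS females (log2 fold change −0.42, standard error 0.15, edgeR adjusted p = 0.0811), and kept its call in 4 of the 12 fits. The paralog scaffold gene Pclo had 41988 to 57150.0 (median 46568) normalized counts among Con females and 39224 to 48894 (median 42869) among MSUS females and did not pass (log2 fold change −0.15, edgeR adjusted p = 0.194).

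The priming factors of the Munc13 family did not pass in females. Unc13a had 23194 to 28905 (median 25894) normalized counts among Con females and 22171 to 25773 (median 23849) among MSUS females (log2 fold change −0.11, edgeR adjusted p = 0.169). Unc13b had 2191 to 4546 (median 2802) normalized counts among Con females and 1997 to 3409 (median 2456) among MSUS females (log2 fold change −0.27). Unc13c went the other way, with 5108 to 15486 (median 12538) normalized counts among Con females and 10190.1 to 20977 (median 16388) among MSUS females (log2 fold change 0.44, standard error 0.25, edgeR adjusted p = 0.246). Of the 6 MSUS females 5 lay above the Con median of Unc13c. Rims2 and Rims3 had log2 fold changes of 0.10 and 0.13, with standard errors of 0.072 and 0.11.

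Vesicular transporters load transmitter and so mark the transmitter type of a neuron. Slc32a1, the GABA transporter of the projection neurons and interneurons of this region, had 6492 to 13655 (median 11464) normalized counts among Con females and 9253 to 12540.5 (median 11818) among MSUS females and did not pass (log2 fold change 0.080, standard error 0.16, edgeR adjusted p = 0.754). Without Con female 3, its lowest Con library, the log2 fold change of Slc32a1 was −0.031. Slc17a6, which marks glutamatergic neurons of thalamus and other subcortical regions, had 418 to 1227 (median 633) normalized counts among Con females and 309 to 596 (median 399.9) among MSUS females (log2 fold change −0.69, standard error 0.26, edgeR adjusted p = 0.0948). All 6 MSUS females were under the median of Con for Slc17a6. Its call was kept in 3 of the 12 fits that left out 1 mouse, and was lost at −0.43 without Con female 3, which had 1227 normalized counts against at most 675 in the other Con females. Slc17a8, which encodes VGLUT3 and is found in cholinergic interneurons, had 353 to 951 (median 727) normalized counts among Con females and 604 to 995 (median 879) among MSUS females and did not pass (log2 fold change 0.33, standard error 0.22, edgeR adjusted p = 0.326).

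Of the 2 genes of vesicle retrieval 1 fell. Dnm1 (chromosome 2, 32308471 to 32353338), the neuronal dynamin that pinches off vesicles, had 34546 to 51007 (median 38370.3) normalized counts among Con females and 29956 to 37912 (median 32263) among MSUS females (log2 fold change −0.31, standard error 0.090, edgeR adjusted p = 0.0383). All 6 MSUS females were under the median of Con and the call held in each fit that left out 1 mouse. Snap91, the clathrin adaptor AP180, had 12373 to 18341 (median 13672) normalized counts among Con females and 11647 to 14582 (median 12201) among MSUS females (log2 fold change −0.19, edgeR adjusted p = 0.154).

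**Figure D3:**
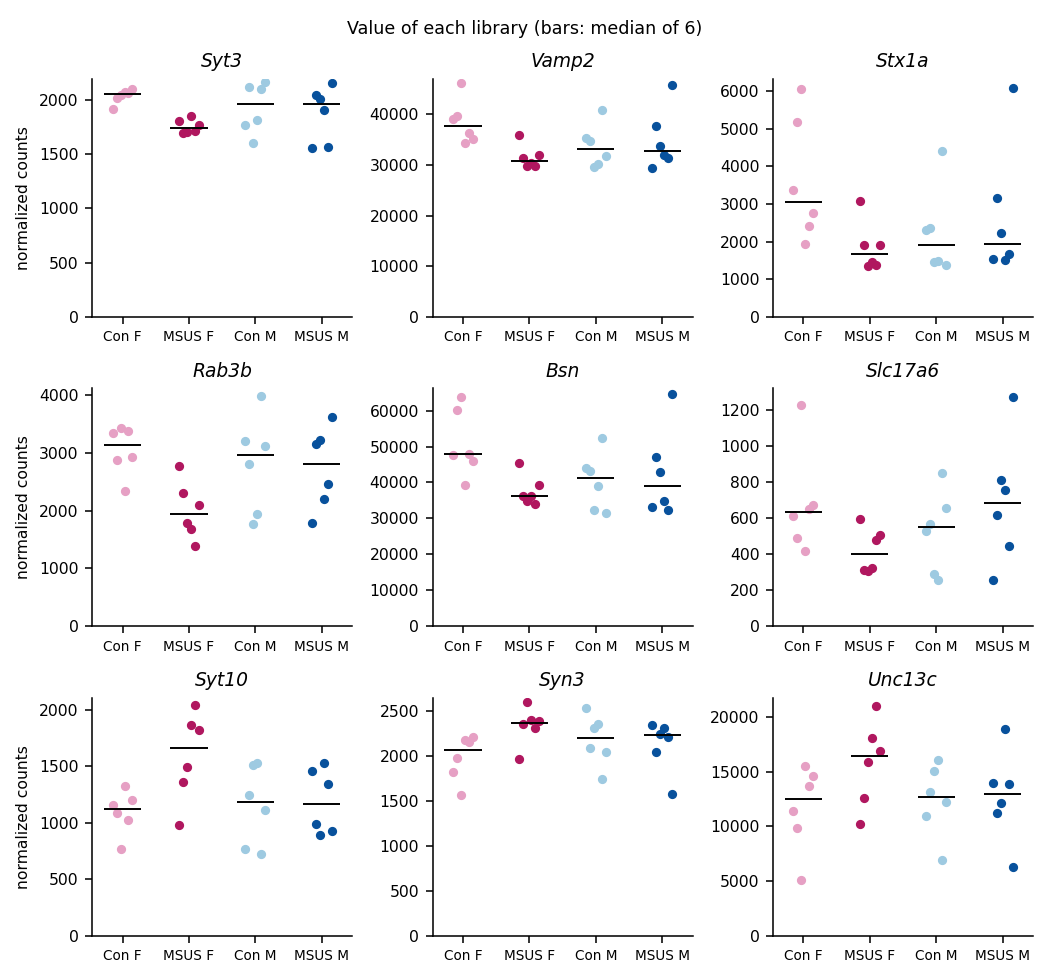
Normalized counts of 9 members in every library, by group (Con and MSUS females, Con and MSUS males), with the median of 6 as a bar and the axis from 0. Of these 9, Syt3 is the one whose female groups do not overlap, Syt10 and Syn3 are those that rose, and in Stx1a, Bsn and Slc17a6 single libraries stand well above the others of their group.

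The second comparison, MSUS with Con in males, gave 0 members that passed in edgeR's quasi-likelihood test and 0 at an unadjusted p under 0.05. Over all 20691 genes tested in males 0% passed and 191 had an unadjusted p under 0.05, and with DESeq2 the count of members was also 0. The median log2 fold change of the members was 0.048, with 36 above 0 and 14 below, and over all genes it was 0.0028. Precision was lower than in females, with a median standard error of 0.14 against 0.12 and a lowest one of 0.051 against 0.032. The smallest p among the members was that of Slc17a6, whose normalized counts were 259 to 852 (median 549.7) in Con males and 255 to 1271 (median 686) in MSUS males (log2 fold change 0.39, standard error 0.37, edgeR adjusted p = 1.00). Of the members that fell in females, Vamp2 had 29602 to 40888 (median 33227) in Con males and 29365 to 45794 (median 32754) in MSUS males (log2 fold change 0.050, standard error 0.11). Male values of Rab3b were 1777 to 3992 (median 2967) in Con males and 1791 to 3617 (median 2809) in MSUS males (log2 fold change −0.036). For Bsn they were 31529.7 to 52455 (median 41120.5) in Con males and 32361 to 64566 (median 38985) in MSUS males (log2 fold change 0.071).

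Whether the effect of MSUS differed between the sexes was tested by the interaction term in a fit of all 24 mice. By edgeR's quasi-likelihood test 0 of the 50 members passed, against 0% of the 21500 genes tested, and 14 members had an unadjusted p under 0.05, against 4031 of all genes. DESeq2 also gave 0 members, although 467 of the 21500 genes passed by it. The smallest adjusted p of a member was that of Syt11, for which the female log2 fold change was lower than the male by 0.24 (value −0.24, standard error 0.087, edgeR adjusted p = 0.212). Normalized counts of Syt11 were 31828 to 39947 (median 34555) in Con males and 32031 to 42389 (median 35419) in MSUS males. Without MSUS male 1 the count of members was 8, or 16%, near the 14% of all 21617 genes that passed in that fit, all with a difference below 0, which were Syt11, Vamp2, Nsf, Napa, Sv2a, Rab3a, Slc17a6 and Dnm1. A difference between females and males in the response of these genes was therefore not shown with all mice.

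The sexes were also compared within each condition, as female over male. In Con mice 0 members passed by edgeR's quasi-likelihood test, against 2.64% of 20641 genes tested. An unadjusted p under 0.05 was found for 5 members, against 3670 of all genes. Unc13a led the members, with 23194 to 28905 (median 25894) normalized counts in Con females and 21462 to 24749 (median 23324) in Con males (log2 fold change 0.17, standard error 0.058, edgeR adjusted p = 0.15). With DESeq2 Unc13a passed, so that the count was 1, against 1511 of all 20641 genes. It was also 1 with counts made without regard to strand, against 1362 of 23568 genes. In MSUS mice 0 members passed, against 0.135% of 20714 genes, and 5 had an unadjusted p under 0.05, against 1511 of all genes. DESeq2 called 0 members there, and 167 of the 20714 genes. Rab3b had the smallest p there, with 1392 to 2776 (median 1945) normalized counts in MSUS females and 1791 to 3617 (median 2809) in MSUS males (log2 fold change −0.45, standard error 0.20, edgeR adjusted p = 0.667). The median log2 fold change of the members, female over male, was 0.14 in Con mice and −0.15 in MSUS mice. These comparisons share the female groups with the first comparison.

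The markers of cortical excitatory neurons were lower on average in MSUS females than in Con females, with overlap between the groups. Their score, the mean log2 CPM of the 12 genes, was 2.61 to 5.31 in Con females (median 3.86) and 0.376 to 4.28 among MSUS females (median 1.95). For Con males it was 1.72 to 4.90 (median 2.82), and for MSUS males 1.50 to 5.33 (median 3.18). In females 3 of the 12 markers fell (Emx1, Fezf2 and Nrn1) and the median log2 fold change was −1.79, and in males 0 passed. The 3 were 25% of the markers, with a smallest edgeR adjusted p of 0.0764. Of all genes tested in females 25.1% passed and 11.9% were lower. The share of uniquely mapped read pairs assigned to no gene also differed between the female groups. It was 31.0 to 34.8% in Con females and 36.3 to 43.9% in MSUS females, without overlap, against 34.7 to 40.6% in Con males and 32.2 to 44.7% in MSUS males. Of the other lists, 0 of 10 striatal projection neuron, 0 of 3 GABA neuron, 0 of 3 cholinergic, 0 of 5 microglial and 0 of 4 endothelial markers passed in females, while 2 of 3 interneuron markers (Pvalb, Sst), 4 of 6 oligodendrocyte markers (Mog, Mag, Cnp, Mobp) and 1 of 5 astrocyte markers (Aldh1l1) fell.

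Across the 24 libraries the level of most members followed the cortical score, whichever group the mouse belonged to. For Sv2b Pearson's r was 0.95 (Spearman's rho 0.98), for Cplx3 0.96 (0.95), for Stx1a 0.94 (0.97) and for Vamp2 0.89 (0.88), while Unc13c, at −0.88 (−0.91), and Syt10, at −0.82 (−0.84), ran against it. Each of these 6 had a permutation p of 1e-05 for r and for rho, the smallest that 100000 permutations can give, and a Benjamini-Hochberg adjusted p of 3.03e-05 for r over 100 relations (50 members with 2 measures). In all, 43 members passed an adjusted p under 0.05 for r with the score, 32 with r above 0 and 11 below. Such relations were computed for the members only, so that this count cannot be set against the share over all genes. All 43 kept the sign of r without the 2 libraries farthest from the median score, where the smallest absolute r was 0.36, and the sign within all 4 groups was the same for 29 of the 32 and 11 of the 11. Within the library numbers 1 to 12 and 13 to 24, r for Sv2b was 0.94 and 0.97, and r for Unc13c −0.90 and −0.86. All 32 members that rose with the score had a female log2 fold change below 0, and all 11 that fell with it had one above 0. The female libraries are among the 24, and the score was lower on average in MSUS females. These signs are therefore not independent of the female comparison and are no separate support for it.

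**Figure D4:**
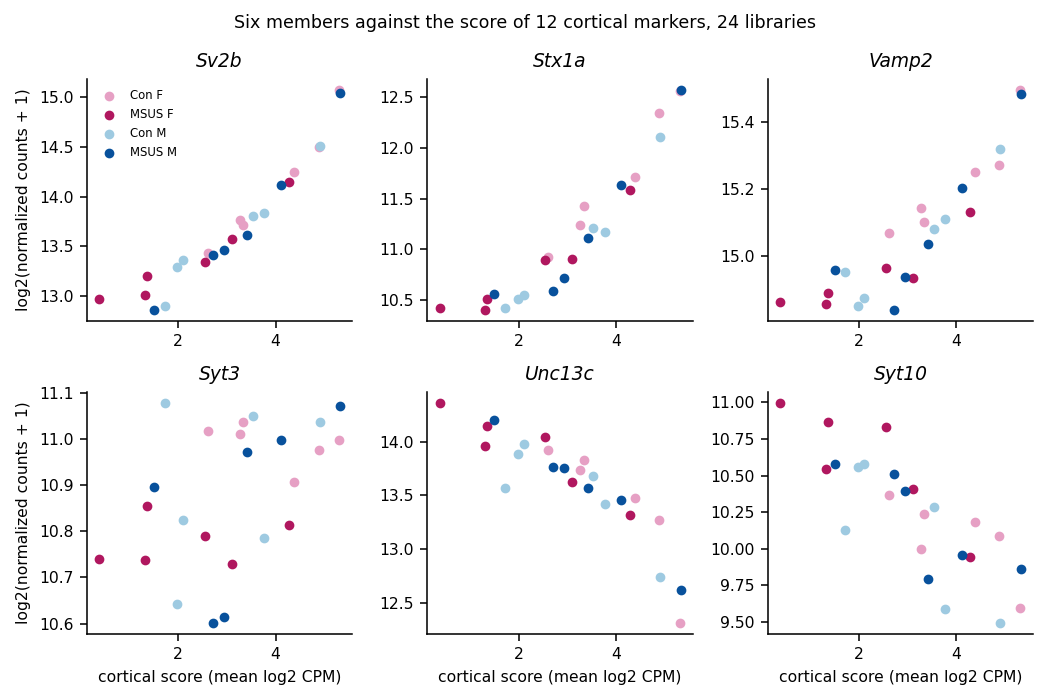
Log2 normalized counts of 6 members against the cortical score of each of the 24 libraries, coloured by group. Sv2b, Stx1a and Vamp2 rise with the score (r of 0.95, 0.94 and 0.89), Unc13c and Syt10 fall with it (−0.88 and −0.82), and Syt3 follows it less closely (0.46), with the MSUS females lying below the Con females at a like score.

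Syt3 was among the members that followed the score least, with r of 0.46 (permutation p = 0.0255, rho 0.44), as were Cplx2 (0.072), Syt5 (0.089), Syt2 (0.024) and Syt4 (−0.26). With the score as a covariate in the female fit 3 members passed, all lower in MSUS, which were Syt3 (log2 fold change −0.21, edgeR adjusted p = 0.0222), Napa (−0.15, 0.0929) and Cplx2 (−0.27, 0.0377). The log2 fold change of Stx1a was −0.18 in that fit, that of Sv2b −0.043 and that of Syt10 0.14. Syt3, Napa and Cplx2 did not pass in another fit, the one with GC and length offsets given below. With the library of the highest score left out of each group (Con female 3 and MSUS female 1, chosen after the data were seen) 26 members passed, 24 lower and 2 higher, and these included all 21, against 26.6% of all genes tested.

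The share of read pairs assigned to no gene went with most members in the other direction. Its r was −0.82 for Napa (rho −0.85), −0.79 for Syt11 (−0.81), −0.79 for Syngr3 (−0.86) and −0.77 for Syt3 (−0.76), and 0.65 for Syn3 (0.68), each with an adjusted permutation p under 0.05. Of the 50 members 31 passed, 30 with r below 0 and Syn3 with r above 0. Here too the share over all genes was not computed. Without the 2 farthest libraries r was −0.79 for Napa and 0.60 for Syn3, and within the library numbers 1 to 12 and 13 to 24 it was −0.86 and −0.74 for Napa. Within groups the relation was not uniform. For Syt3 r was 0.50 within Con females, −0.69 within MSUS females, −0.80 within Con males and −0.88 within MSUS males, and for Napa it was 0.44, −0.61, −0.81 and −0.93 in the same order. With this share as a covariate 0 members and 0 of all genes passed in females by edgeR's quasi-likelihood test, 1174 of all genes had an unadjusted p under 0.05, and the 21 members kept the sign of their log2 fold change. In that fit Syt3 had −0.17, Vamp2 −0.30 and Syt10 0.92. Since the share does not overlap between the female groups, it and the MSUS condition cannot be told apart in females.

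**Figure D5:**
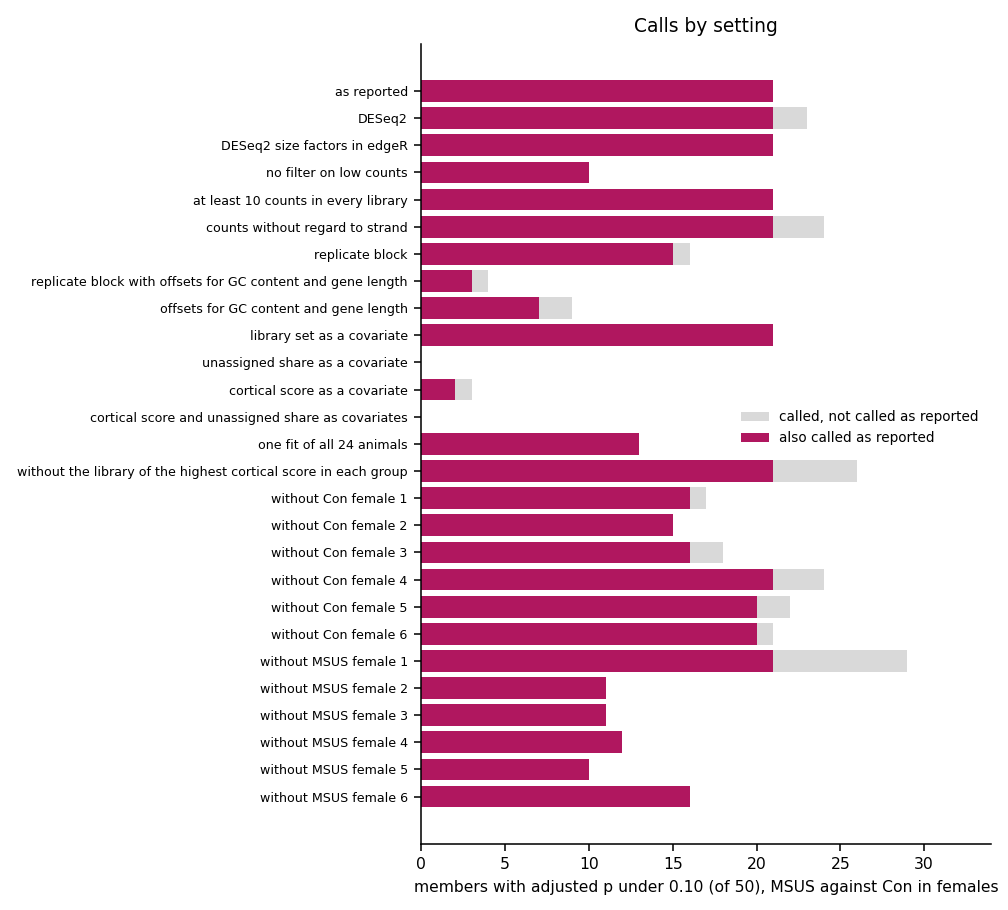
Number of the 50 members past an adjusted p under 0.10 in females in each fit, with the part also called in the fit as reported in colour. The count is 21 as reported and 23 with DESeq2, falls to 3 with the cortical score and 0 with the unassigned share as covariates, and lies between 10 and 29 when 1 mouse is left out.

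A further list of 71 genes of the same pathway, which holds no member, was counted in the same fits. Of these 69 could be tested, and Cplx4 and Syt8 did not pass the filter on low counts. In females 22 fell and 4 rose, and in males 0 passed, with a median log2 fold change of −0.12 in females and 0.046 in males. Of those tested in females 37.7% passed and 31.9% were lower, against 25.1% and 11.9% of all genes. With the cortical score as a covariate fewer of the list passed, and with the unassigned share 0 of all genes did. Slc17a7 is in this list and among the cortical markers. Among those that fell were subunits of the clathrin adaptor AP2 and of the proton pump that energizes vesicle filling. Ap2a1 had 13169 ± 482 normalized counts (SD, n = 6) among Con females and 11326 ± 546 among MSUS females (log2 fold change −0.21, standard error 0.039, edgeR adjusted p = 0.00591). Atp6v0c had 2468 ± 180.1 normalized counts (SD, n = 6) among Con females and 1971 ± 162 among MSUS females (log2 fold change −0.32, standard error 0.061, edgeR adjusted p = 0.00668). Ap2s1 had 3074 ± 264 normalized counts (SD, n = 6) among Con females and 2517 ± 116 among MSUS females (log2 fold change −0.28, standard error 0.055, edgeR adjusted p = 0.00703). All 5 AP2 subunit genes of the list fell (Ap2a1, Ap2a2, Ap2b1, Ap2m1 and Ap2s1), as did Syn1 and Syp.

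The genes of that list that rose were Syt14, Vamp4, Rab27b and Ppfia1. Syt14, a synaptotagmin that does not bind calcium, had 2826 ± 167 normalized counts (SD, n = 6) among Con females and 3259 ± 143 among MSUS females (log2 fold change 0.21, standard error 0.043, edgeR adjusted p = 0.00894). Vamp4, a SNARE of endosomes and of bulk retrieval, had 3545 ± 295 normalized counts (SD, n = 6) among Con females and 3955 ± 127 among MSUS females (log2 fold change 0.16, standard error 0.050, edgeR adjusted p = 0.045). Rab27b, a GTPase of secretory vesicles, had 2881 ± 377 normalized counts (SD, n = 6) among Con females and 3467 ± 354 among MSUS females (log2 fold change 0.27, standard error 0.090, edgeR adjusted p = 0.0581).

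The members that fell and rose were compared by features of their genes. The 19 that fell had a median transcript GC content of 54.7% and a median genomic span of 31471 bases, the 2 that rose 46.5% and 251620 bases, and the 29 that did not pass 49.2% and 67506 bases. Over the members, Spearman's rho of the female log2 fold change was −0.22 with GC content and 0.15 with genomic span, against −0.33 and 0.13 over 14943 protein-coding genes tested. Genes are not independent replicates, so that no p is given. When offsets for GC content and length were fitted, the female count was 9, of which 7 were among the 21. The members' share of 18% was near the 16.3% of all genes. Syt3, Napa and Cplx2, the 3 members that passed with the cortical score as a covariate, did not pass with these offsets. In mice of the library numbers 1 to 12 and of 13 to 24 taken apart, all 19 members that fell and both that rose had the sign of the full comparison. So did 26 of the 29 that did not pass. The calls were made from these same mice, so that the like signs are no separate support for them.

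Promoters of the members were looked up since the levels of most went with the cortical score across libraries, 32 rising with it and 11 falling. RefSeq promoter windows on GRCm38.p6, 250 bases before to 50 after the start, were held for 37 of the 50 genes (49 windows). The GC box GGGCGG, read on both strands, was in 65.3% of the members' windows and in 35.7% of all 32851, the element TGACGTCA, which reads the same on both strands, in 2.04% and 1.79%, and the TATA sequence TATAAA, on both strands, in 6.12% and 13.6%. None of these 3 strings contains another. The median GC content was 62.3% in the members' windows and 52.7% in all. Windows of the members that fell held the GC box in 59.1% (22 windows) and those of members that did not pass in 69.2% (26 windows).

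The 250 bases before the start are shown for 4 of the members plotted against the cortical score, a pair that rose with it and a pair that fell, with matches to these strings in capitals. Stx1a (chr5:135023232-135023481, plus strand) and Sv2b (chr7:75309263-75309512, minus strand, the window of its outermost start) rose with the score, and Syt10 (chr15:89841861-89842110, minus strand) and Unc13c (chr9:73969038-73969287, minus strand) fell with it.
Stx1a: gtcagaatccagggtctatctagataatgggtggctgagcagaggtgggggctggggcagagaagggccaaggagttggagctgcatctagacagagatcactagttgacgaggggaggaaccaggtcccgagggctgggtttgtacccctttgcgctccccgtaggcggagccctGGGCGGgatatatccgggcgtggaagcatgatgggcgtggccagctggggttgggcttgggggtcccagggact
Sv2b: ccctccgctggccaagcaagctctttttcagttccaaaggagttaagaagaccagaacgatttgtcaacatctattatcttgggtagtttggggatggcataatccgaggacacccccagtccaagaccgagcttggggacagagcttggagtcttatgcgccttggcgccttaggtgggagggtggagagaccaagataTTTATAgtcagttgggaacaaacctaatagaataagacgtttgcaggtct
Syt10: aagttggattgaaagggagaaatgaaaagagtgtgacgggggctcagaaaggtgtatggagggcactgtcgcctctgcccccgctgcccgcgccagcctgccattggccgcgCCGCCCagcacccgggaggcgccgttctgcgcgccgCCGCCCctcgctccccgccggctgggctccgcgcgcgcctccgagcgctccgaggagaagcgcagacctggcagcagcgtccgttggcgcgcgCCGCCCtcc
Unc13c: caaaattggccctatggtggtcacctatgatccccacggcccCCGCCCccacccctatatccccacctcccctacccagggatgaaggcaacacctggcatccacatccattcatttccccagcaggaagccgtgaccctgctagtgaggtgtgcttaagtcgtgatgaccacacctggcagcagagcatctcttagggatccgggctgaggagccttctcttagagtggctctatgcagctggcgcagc
The window of Stx1a holds 1 GC box, that of Syt10 holds 3 and that of Unc13c holds 1. The Sv2b sequence holds the TATA string on the other strand and no whole GC box, although its window of 300 bases has one. A match is a string of letters and not a bound site.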

How the data were processed

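RNA of 24 NAc samples was sequenced by the authors after rRNA depletion. Per the submitters' processing notes reads were handled with CASAVA 1.8 and STAR 2.6.1b on mm10, and the notes also name HTSeq and DESeq2. The deposited files hold raw, unnormalized counts of read pairs for each gene in 3 columns by strand. The column of the gene's own strand was used, with 39923666 to 70575745 counts per library, and 4 rows per file that name no gene were left out of library sizes. Their unassigned share is given in the text.

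Genes passing filterByExpr (minimum count 10) were fitted with edgeR 4.0.16 (R 4.3.3; TMM, robust quasi-likelihood, Benjamini-Hochberg adjusted p under 0.10), separately for females, males, Con and MSUS, with 6 libraries per group, and in 1 fit of 24 for the interaction. Normalized counts are counts divided by DESeq2 1.42.0 size factors. Levels between genes are CPM per kb of exon (GENCODE M21). The cortical score is the mean log2 CPM (prior count 2) of 12 genes. Correlations used log2(normalized count + 1) and 100000 two-sided permutations. The female fit was also run on simulated counts with known changes. These were drawn gene by gene, without relations to the cortical score or the unassigned share, so that they do not test for effects of either.

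The members and lists were chosen with earlier results of these data known. Given in full were, per functional group, the members with the smallest p and the largest absolute log2 fold change in females (mean of at least 100 normalized counts), the member of lowest p in every other comparison, the 2 highest and 2 lowest levels, all 3 transporters, and 3 genes of smallest p per direction of the other pathway list. Other members passing in females are also given by value, chosen after their values were seen. Estrous stages were not used, since the labels give them to 6 females and to 6 males.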

Additional observations from a re-analysis of the deposited data

Results flagged for a closer look

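Over the 50 members and 4 groups, 200 sets of 6 libraries, the highest or lowest library stood apart from the other 5 by Dixon's criterion in 35. Chance flags about 1 in 20 independent groups of normal values. These sets share their libraries and hold genes that move together, so that the 35 cannot be set against that rate. The library was the highest of its group in 31 cases and the lowest in 4. In 34 of the 35 it was the library with the highest cortical score of its group, which was Con female 3, MSUS female 1, Con male 5 or MSUS male 6. Values are normalized counts.

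In Con female 3 the high genes were Syt1 (89825), Syt17 (3314), Snap25 (100027), Nsf (45670.5), Napb (32059), Sv2a (26812), Rab3a (22661) and Slc17a6 (1227), and Syt6 was low (3327). In MSUS female 1 the high genes were Syt1 (63453), Syt17 (1518), Doc2a (594), Stx1a (3073), Vamp2 (35905), Snap25 (68050.1), Napb (22118), Syngr1 (17472), Rims1 (13245) and Dnm1 (37912).

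In Con male 5 the high genes were Syt13 (7225), Doc2a (934) and Stx1a (4399.7), and Rims2 was low (8847). In MSUS male 6 the high genes were Syt1 (95049.9), Syt7 (18239.7), Syt13 (9766), Doc2a (1198), Stx1a (6093), Snap25 (101596), Cplx3 (1757), Unc13b (4736) and Snap91 (18929), while Doc2b (4427) and Rims2 (8243) were low. The exception was Rims3, which was high in MSUS male 4 (8414). The next library below was at 66476 for Snap25 in Con females, 51453 for Snap25 in MSUS females and 62604 for Snap25 in MSUS males.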

How the results depend on the processing

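Of the 50 members, 21 passed in females (2 rose, 19 fell; 25.1% of all genes tested). The count was 10 without the filter on low counts (0 rose, 10 fell; 10.1% of all genes), 9 with GC and length offsets (0 and 9; 16.3%), 3 with the cortical score as a covariate (0 and 3; 8.91%), 0 with the unassigned share (0 and 0), 0 with both covariates (0 and 0), 13 in one fit of all 24 mice (1 and 12; 19%), and 10 at an adjusted p under 0.05 (0 and 10; 15.2%). The members' share was 18% with the GC offsets, 6% with the cortical score and 8% with the block and GC offsets, near or below that of all genes. Correlations of same-numbered libraries ran from −0.24 to 0.25 in females and from −0.37 to 0.26 in males. They show no strong pairing of mice by replicate number and cannot exclude a weak one. With the replicate number as a block 16 members passed (1 rose; 18.5% of all genes), and with the block and the GC offsets 4 (0 rose, 4 fell; 9.73%). The filter adds tests where it is absent, and for the others the cause was not tested. Leaving out 1 mouse gave 10 to 29 members (0 to 2 rose, 10 to 27 fell). Of the other pathway genes 26 passed, and 17 did with GC offsets, 11 with the block and GC offsets, 5 with the cortical score, 0 with the unassigned share, 0 with both, 17 in one fit of all mice and 18 to 36 without 1 mouse. Females against males in Con gave 0 members, 1 with DESeq2 (1511 of 20641 genes) and 1 without regard to strand (1362 of 23568). The interaction gave 0, and 0 to 8 without 1 mouse (14% of all genes in the fit that gave 8).

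With both covariates the sign turned for 25 of the 50 members, 8 of them among the 21, Nsf and Syn3 included. Those named by the rule were Syt11 (0.016; interaction 0.035), Syt17 (0.52), Doc2a (0.25), Napb (0.060), Cplx3 (0.80), Sv2a (0.016), Sv2b (0.16), Syngr3 (0.014), Syngr1 (0.0083), Slc17a6 (0.079), Unc13b (0.033) and Slc32a1 (−0.17), as log2 fold changes. With the cortical score alone it turned for 21 members, 0 of them among the 21 that passed, and those named by the rule were Syt17 (0.29), Doc2a (0.055), Napb (0.0045), Cplx3 (0.096), Unc13b (0.17), Unc13c (−0.12), Slc32a1 (−0.22) and Slc17a8 (−0.12), and without Con female 3 for Slc32a1 (−0.031). The lowest count of a member in any library was 29, so that depth limited none of the members' detection.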
